A study of Mus musculus with 21 samples.

Results

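Guanylin and cGMP signalling was described here through 6 genes: the hormone genes Guca2a (guanylin) and Guca2b (uroguanylin), their receptor Gucy2c, the cGMP-dependent kinase genes Prkg1 and Prkg2, and the phosphodiesterase gene Pde5a. They were chosen by symbol, and each has a row among the 24062 genes of the count table. All 6 passed the filter on low counts, which left 15936 genes for testing.

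RNA-seq after depletion of ribosomal RNA was made from the colon of C57BL/6 mice, either wild-type or App NL-G-F knock-in animals, an Alzheimer model in which the mouse App gene carries familial disease mutations at its own locus. There were 21 libraries, 3 in each of 7 groups. Tumours came from mice given azoxymethane (AOM), a colon carcinogen, followed by dextran sulfate sodium (DSS), which injures the colon epithelium. The tumour groups were wild-type males, knock-in males and wild-type females, and the normal colon groups were both genotypes in both sexes. Tumours of knock-in females were not analysed here. The normal samples are labelled as untreated, whereas the series text speaks also of normal tissue beside tumours, so treatment and tumour state cannot be told apart. The ages, the number of animals behind a library and the zygosity of the knock-in are not given in the labels used here, and nothing says that replicates are separate animals, so p-values measure the spread between these libraries. In the knock-in female normal group, 2 columns carried the same header and are called replicates a and b.

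Guanylin and uroguanylin are small peptides that epithelial cells release into the gut lumen. They bind guanylyl cyclase C, the product of Gucy2c, on the luminal face of the epithelium, and the cyclase makes cGMP from GTP. In epithelial cells cGMP acts through the membrane-bound kinase cGKII (Prkg2), which opens the chloride channel CFTR and restrains sodium uptake, and in smooth muscle it acts through cGKI (Prkg1), which relaxes the muscle. PDE5 (Pde5a) breaks cGMP down and is known chiefly from smooth muscle. Loss of guanylin is a known feature of colorectal tumours.

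The hormone genes lie side by side on chromosome 4 and end their coding sequences alike, which is shown first because their levels in the tumours differed. In the GRCm38 build with the GENCODE M21 annotation, Guca2a lies at chr4:119637704-119639471 on the plus strand and Guca2b at chr4:119656607-119658954 on the minus strand, with 17.1 kb between them and their 3′ ends facing each other. The last 45 coding bases before the stop codon, which encode the active peptide, are given 5′ to 3′ with the cysteine codons in capitals.
Guca2a: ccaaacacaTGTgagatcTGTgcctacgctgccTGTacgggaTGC
Guca2b: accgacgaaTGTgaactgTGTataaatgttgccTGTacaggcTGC
Of these 45 bases 29 (64.4%) are identical, and the 4 cysteine codons stand at the same places. Of the 15 codons 5 are identical. The cysteines form the disulfide bonds that both peptides need to bind the receptor.

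In all 3 tumour groups Guca2a, Gucy2c and Prkg1 were lower than in normal colon of the same genotype and sex, while Guca2b did not pass edgeR's test in any and passed with limma voom in wild-type females, higher. Prkg2 was higher in the tumours of wild-type males and wild-type females. Pde5a was lower in wild-type male tumours. A gene passed where edgeR's quasi-likelihood F test gave p under 0.05 after Benjamini-Hochberg adjustment over the 15936 genes. In wild-type males 5 of the 6 genes passed, 4 lower and 1 higher, where 35.7% of all genes tested passed, 19.3% lower and 16.5% higher. In knock-in males 3 passed, all lower, against 20.4% of all genes and 9.97% lower. In wild-type females 4 passed, 3 lower and 1 higher, against 49.1% of all genes, 24.0% lower and 25.0% higher. The groups did not overlap for 5, 3 and 4 of the 6 genes, against 52.4%, 33.6% and 58.4% of all genes.

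**Figure D1:**
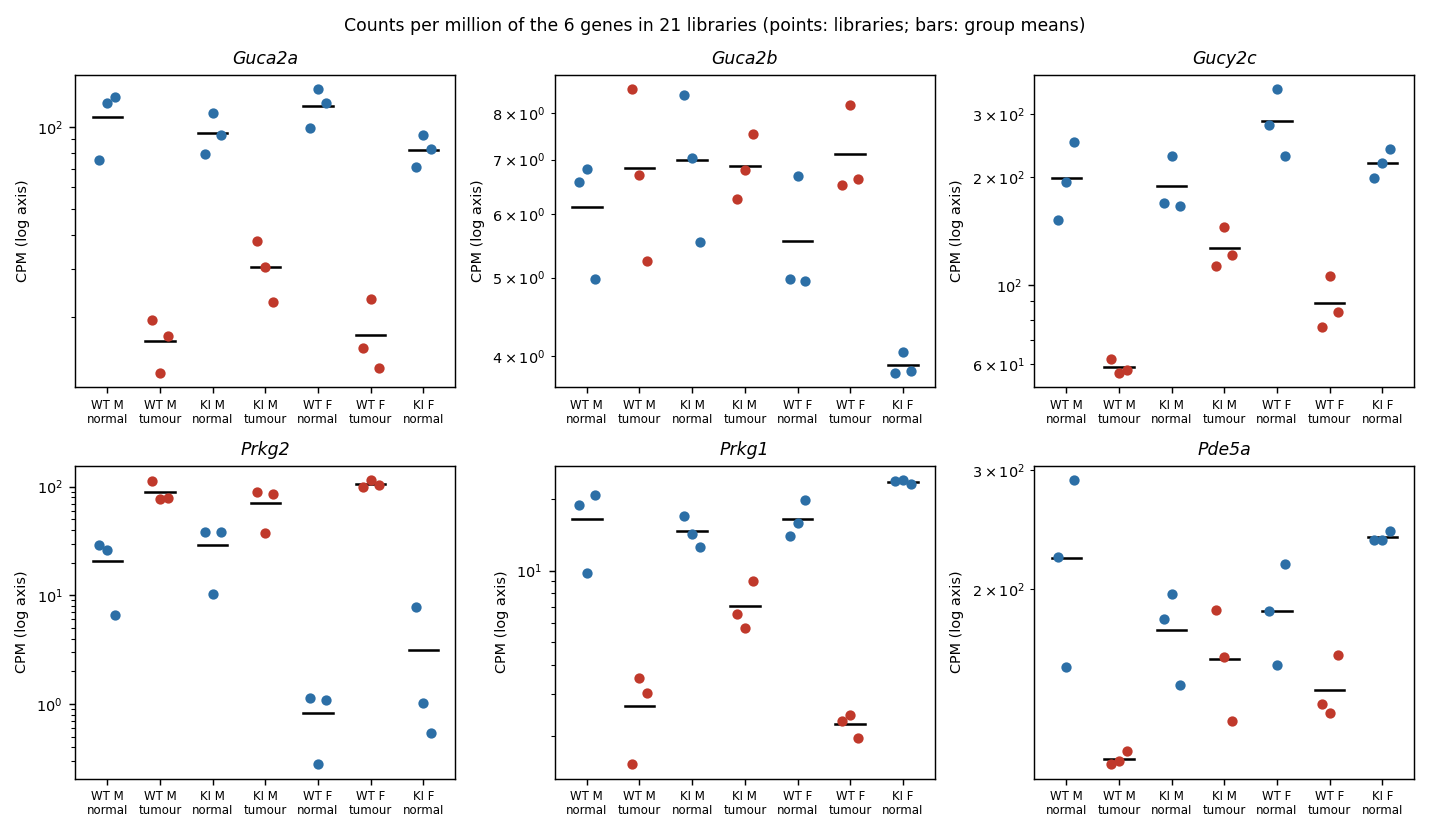
CPM (log axis) of the 6 genes in each of the 21 libraries by group, with W for wild-type, K for knock-in, M for male, F for female, N for normal and T for tumour where abbreviated. Points are libraries and bars are group means. The tumour libraries lie below all normal libraries for Guca2a, Gucy2c and Prkg1, and Prkg2 runs from 0.279 CPM in a wild-type female normal library to 115 CPM in a wild-type female tumour.

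The guanylin gene Guca2a gave 75.4, 122 and 129 CPM (counts scaled to library size by TMM) in the 3 normal libraries of wild-type males and 19.6, 12.5 and 17.0 CPM in their tumours. In knock-in males the normal libraries gave 79.4, 112 and 93.6 CPM and the tumours 38.2, 30.8 and 22.8 CPM. Wild-type females had 99.1, 138 and 122 CPM in normal colon and 15.5, 23.4 and 13.0 CPM in tumours. Every tumour library thus lay below every normal library, including the knock-in female normal libraries at 71.4, 93.1 and 82.8 CPM. The log2 fold change between tumour and normal was −2.70 in wild-type males (edgeR's adjusted p = 3.864e-06, SE 0.26), −1.63 in knock-in males (edgeR's adjusted p = 0.001697, SE 0.24) and −2.79 in wild-type females (edgeR's adjusted p = 3.74e-07, SE 0.26). In order of group means, the 4 normal groups came first, from 120 CPM in wild-type females to 82.4 CPM in knock-in females, and each overlapped the next. The means of the tumour groups followed at 30.6, 17.3 and 16.4 CPM, in knock-in males, wild-type females and wild-type males, and these too overlapped their neighbours.

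Guca2b, which encodes uroguanylin, a hormone known more from the small intestine than the colon, stayed within 3.81 to 8.57 CPM over all 21 libraries. Wild-type male normal libraries gave 6.57, 6.81 and 4.97 CPM and the tumours 8.57, 6.69 and 5.25 CPM. Knock-in males gave 8.41, 7.03 and 5.53 CPM in normal colon and 6.26, 6.80 and 7.54 CPM in tumours. In wild-type females the values were 4.99, 6.69 and 4.96 CPM in normal colon and 6.52, 8.19 and 6.63 CPM in tumours, so that tumour and normal libraries overlapped in all 3 comparisons. The log2 fold changes were 0.16 (SE 0.22), −0.03 (SE 0.22) and 0.37 (SE 0.22), with edgeR adjusted p of 0.6054, 0.9436 and 0.1865. The female comparison passed with limma voom (0.46, adjusted p = 0.04987) and in none of the other alternatives run. Relative to the pan-epithelial list the differences were 0.50, 0.13 and 1.07, without overlap only in wild-type females (exact p = 0.2, 0.5 and 0.1). In the order of means the lowest group stood apart: knock-in female normal colon, at 3.81, 4.05 and 3.83 CPM, lay below every wild-type female normal library.

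Because the hormone genes were counted in the same library, the ratio of their counts does not depend on library size. The log2 ratio of Guca2a to Guca2b counts was 4.12 ± 0.58 (SD, n = 3) in normal colon of wild-type males and 1.26 ± 0.40 in the tumours. It was 3.77 ± 0.46 and 2.12 ± 0.51 in knock-in males, and 4.42 ± 0.16 and 1.24 ± 0.27 in wild-type females. There were between 9.40 and 25.7 guanylin counts per uroguanylin count in the normal libraries of these groups and between 1.85 and 6.07 in the tumours, without overlap within any comparison. The differences were −2.86, −1.64 and −3.18 on the log2 scale, each with an exact two-sided permutation p of 0.1, the smallest that 3 libraries against 3 allow, and 0.2 after Benjamini-Hochberg adjustment over 6 comparisons. Between knock-in and wild-type male tumours the difference was 0.87, with overlapping groups (exact p = 0.2, adjusted 0.3). In normal colon the genotypes differed by −0.35 in males and −0.04 in females, with exact p of 0.4 and 0.8.

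**Figure D2:**
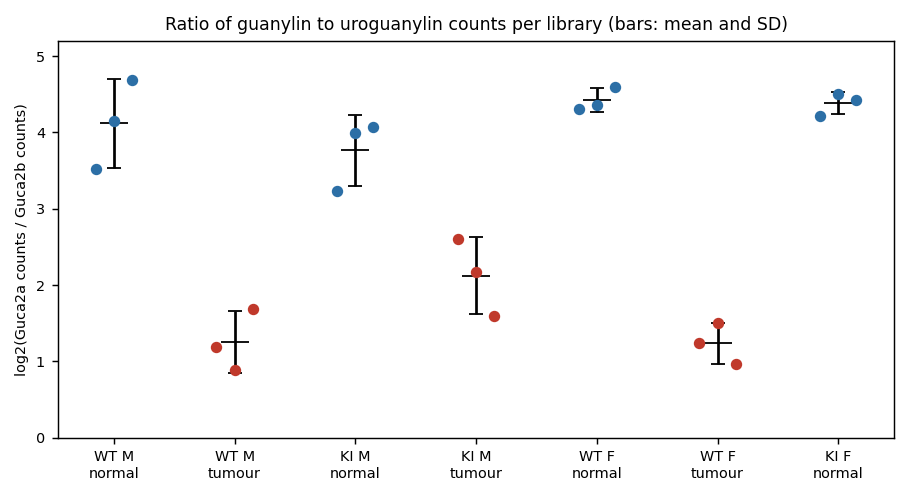
Log2 ratio of Guca2a counts to Guca2b counts in each library (points) with the group mean and SD (bars), for the 7 groups (W wild-type, K knock-in, M male, F female, N normal, T tumour where abbreviated). The 3 tumour groups have means of 1.24 to 2.12 and the 4 normal groups 3.77 to 4.42.

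The receptor gene Gucy2c (chr6:136697284-136781765, minus strand) gave 152, 194 and 251 CPM in wild-type male normal colon and 62.1, 56.7 and 57.7 CPM in the tumours. Knock-in males gave 170, 229 and 166 CPM in normal colon and 113, 145 and 121 CPM in tumours. Wild-type females gave 279, 353 and 229 CPM in normal colon and 76.2, 106 and 84.3 CPM in tumours. No tumour library of a comparison reached its normal libraries. The log2 fold changes were −1.75 in wild-type males (edgeR's adjusted p = 6.759e-06, SE 0.19) and −1.69 in wild-type females (edgeR's adjusted p = 1.736e-06, SE 0.19). In knock-in males the change was −0.57 (edgeR's adjusted p = 0.03574, SE 0.19). That last call was lost in a fit of the 2 compared groups alone (adjusted p = 0.08265), with limma voom (0.08509), and without knock-in normal replicate 2 (0.1003) or 3 (0.05466) or knock-in tumour replicate 1 (0.0769) or 3 (0.09068).

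Ordered by mean, Gucy2c ran from 287 ± 62.3 CPM (SD, n = 3) in normal colon of wild-type females through 220 ± 20.9, 199 ± 49.7 and 188 ± 35.3 CPM in knock-in female, wild-type male and knock-in male normal colon. These 4 neighbours overlapped. The tumours then separated without overlap at each step, with 127 ± 17.0 CPM in knock-in males, 88.9 ± 15.5 CPM in wild-type females and 58.9 ± 2.83 CPM in wild-type males.

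Beside the receptor and guanylin, markers of the whole epithelium were mostly lower in the wild-type tumours. Of the 12 pan-epithelial genes (such as Epcam, Cdh1 and Krt8), 7 were lower and 1 higher in wild-type male tumours, 1 lower and 1 higher in knock-in males, and 10 lower and 1 higher in wild-type females. Their median log2 fold changes were −0.47, −0.17 and −0.79, against medians of all genes near 0 (0.005, 0.007 and 0.008). Their summed level was 9127 to 12048 CPM in wild-type male normal colon and 7906 to 8422 CPM in the tumours. Relative to the mean log2 CPM of this list in the same library, Gucy2c differed by −1.37, −0.43 and −0.97 between tumour and normal in wild-type males, knock-in males and wild-type females, without overlap. Guca2a differed likewise by −2.34, −1.51 and −2.10, also without overlap. Each of these 6 differences had an exact permutation p of 0.1, the smallest possible, and 0.2 after adjustment over 36 tests. In bulk tissue, fewer cells of a type and less RNA per cell cannot be told apart.

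Markers of single epithelial types were counted in the same comparisons. Of 12 differentiated colonocyte genes, 9, 4 and 10 were lower in the tumours of wild-type males, knock-in males and wild-type females, with medians of −1.44, −0.60 and −2.28. Of 9 goblet genes 7, 5 and 7 were lower, with medians of −1.95, −0.77 and −2.19. Of 8 crypt stem genes (Lgr5, Ascl2 and others), 5, 1 and 7 were higher, with medians of 1.05, 0.57 and 2.54. The enteroendocrine list went from a mean log2 CPM of 3.44 to 1.13, 3.87 to 2.14 and 4.08 to 0.83. Of all genes, 19.3%, 9.97% and 24.0% were lower, and 16.5% and 25.0% higher in wild-type males and females. In knock-in males 20.4% passed in either direction, so 1 of 8 crypt stem genes is near the background. The part of these lists in the values of Guca2a, Gucy2c and Prkg2 was not tested.

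The kinase gene Prkg2 (chr5:98929773-99037351, minus strand), whose product is the cGMP effector of the epithelium, went the other way. Wild-type female normal colon gave 1.14, 0.279 and 1.08 CPM, from 27, 2 and 7 counts, and the tumours of these females gave 98.6, 115 and 104 CPM. In wild-type males the normal libraries gave 29.1, 26.2 and 6.57 CPM and the tumours 113, 76.8 and 78.1 CPM. Knock-in males gave 38.1, 10.3 and 38.0 CPM in normal colon and 88.6, 37.7 and 86.1 CPM in tumours, where the lowest tumour library fell just below the highest normal one. The normal libraries differed among themselves more for Prkg2 than for any other of the 6 genes, within groups and between the sexes.

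The log2 fold change of Prkg2 between tumour and normal was 6.82 in wild-type females (edgeR's adjusted p = 3.039e-05, SE 0.94) and 2.10 in wild-type males (edgeR's adjusted p = 0.02529, SE 0.68). It was 1.30 in knock-in males (edgeR's adjusted p = 0.17, SE 0.66). The call in wild-type males was lost without normal replicate 3 (1.69, adjusted p = 0.09767) and without tumour replicate 1 (1.87, adjusted p = 0.08083). Relative to the pan-epithelial list Prkg2 differed by 2.70, 1.55 and 7.59 in wild-type males, knock-in males and wild-type females, without overlap in the wild-type groups and with overlap in knock-in males (exact p = 0.1, 0.2 and 0.1). By mean, the tumour groups led with 106, 89.3 and 70.8 CPM in wild-type females, wild-type males and knock-in males, and neighbours in the whole order of 7 groups overlapped.

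Prkg1 (chr19:30564489-31765033, minus strand), which encodes the smooth muscle form of the kinase, gave 19.0, 9.73 and 20.9 CPM in wild-type male normal colon and 1.51, 3.49 and 3.04 CPM in the tumours. In knock-in males the normal libraries gave 17.1, 14.2 and 12.6 CPM and the tumours 6.53, 5.74 and 9.0 CPM. Wild-type females gave 14.0, 15.9 and 19.8 CPM in normal colon and 2.31, 2.46 and 1.96 CPM in tumours. All tumour libraries were below all normal libraries, and the knock-in tumours lay above the tumours of both wild-type groups. The log2 fold changes were −2.71 in wild-type males (edgeR's adjusted p = 8.865e-06, SE 0.31), −1.05 in knock-in males (edgeR's adjusted p = 0.01275, SE 0.27) and −2.88 in wild-type females (edgeR's adjusted p = 1.075e-06, SE 0.31). In a fit of these 2 groups alone, the adjusted p in knock-in males was 0.05026. The gene Cstf2t lies within Prkg1 on the opposite strand, and since the strand setting of the counting is not given in the sources used here, the split of reads between them is uncertain.

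Smooth muscle markers moved with Prkg1, and so did those of interstitial cells of Cajal and of enteric neurons and glia. All 15 of the smooth muscle genes tested (such as Acta2, Myh11 and Des) were lower in wild-type male and wild-type female tumours, with medians of −3.35 and −3.37, and 13 of 15 were lower in knock-in male tumours, with a median of −2.37. Their summed level was 3536 to 11864 CPM in wild-type male normal colon and 378 to 1089 CPM in the tumours. It was 5717 to 10180 and 1296 to 1392 CPM in knock-in males, and 2424 to 5559 and 299 to 355 CPM in wild-type females. No marker of this list was at 0 in every library of any group. Relative to the mean log2 CPM of this list, the tumour and normal means of Prkg1 differed by 0.86, 1.14 and 0.41, tumour minus normal, with overlap in both wild-type comparisons and none in knock-in males (exact p = 0.2, 0.1 and 0.3).

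Pde5a (chr3:122728947-122859374, plus strand) gave 223, 153 and 290 CPM in wild-type male normal colon and 110, 111 and 115 CPM in the tumours, without overlap. Knock-in males gave 180, 197 and 144 CPM in normal colon and 186, 158 and 127 CPM in tumours. Wild-type females gave 185, 154 and 218 CPM and 135, 131 and 159 CPM. Tumour and normal libraries overlapped in the knock-in males and in the females. The log2 fold changes were −0.99 in wild-type males (edgeR's adjusted p = 0.0006403, SE 0.19), −0.14 in knock-in males (edgeR's adjusted p = 0.6075, SE 0.19) and −0.39 in wild-type females (edgeR's adjusted p = 0.09264, SE 0.19). The female comparison passed with limma voom (−0.36, adjusted p = 0.03877) and without normal replicate 2 (−0.51, adjusted p = 0.04862). The non-coding gene 4930447N08Rik overlaps Pde5a on the opposite strand, so shared reads are uncertain here too.

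The fold changes of Pde5a were closer to 0 than the medians of the smooth muscle genes. Relative to the smooth muscle list it lay higher in tumours by 2.47, 2.04 and 2.82 on the log2 scale in wild-type males, knock-in males and wild-type females, without overlap in any (exact p = 0.1, the smallest possible, 0.2 after adjustment over 36 tests). In the plot of Pde5a against the list, the wild-type female tumours hold the lowest values of the list but not of Pde5a.

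**Figure D3:**
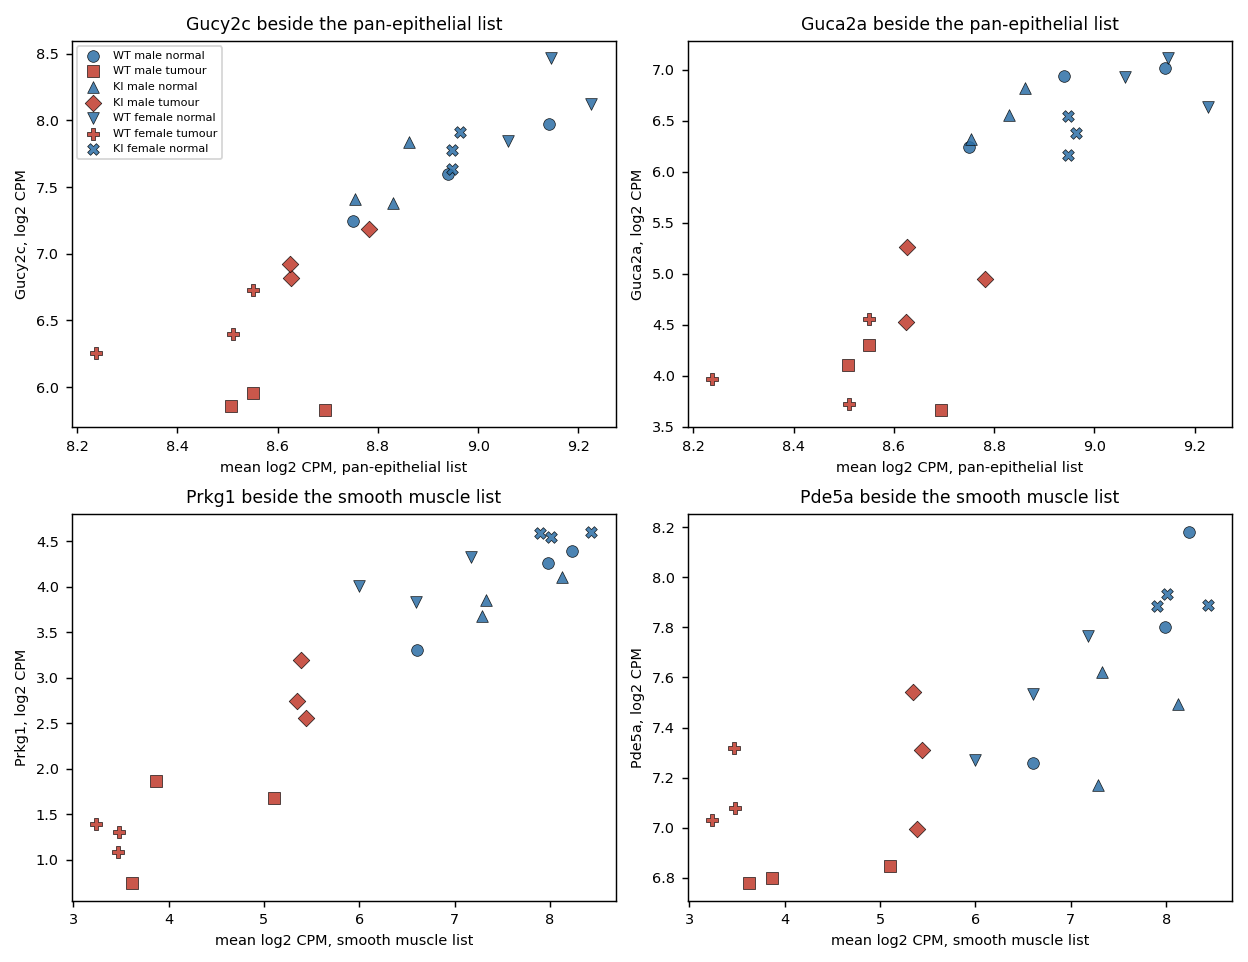
Log2 CPM of Gucy2c, Guca2a, Prkg1 and Pde5a (vertical axes) against the mean log2 CPM of the marker list of the cell type each is known from (horizontal axes), 1 point per library, with tumours in red and normal colon in blue. Prkg1 is low in the libraries where the smooth muscle list is low, whereas Pde5a relative to that list is higher in tumours by 2.04 to 2.82.

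Levels can be set against each other between genes only per length, here as CPM per kb of merged exons. In wild-type male normal colon the order was Guca2a at 183, Gucy2c at 50.2, Pde5a at 22.6, Guca2b at 7.03, Prkg2 at 3.84 and Prkg1 at 1.52 CPM per kb. In wild-type male tumours it was Guca2a at 27.6, Prkg2 at 16.6, Gucy2c at 14.9, Pde5a at 11.4, Guca2b at 7.86 and Prkg1 at 0.247 CPM per kb. The mean of Prkg2 thus stood above that of the receptor on this scale in wild-type male tumours, but only replicate 1 showed this order. In replicates 2 and 3 Prkg2 lay just below the receptor, at 14.31 against 14.33 and 14.55 against 14.59 CPM per kb. In wild-type female tumours the mean of Prkg2 was below that of the receptor, at 19.7 against 22.4 CPM per kb. In wild-type female normal colon Prkg2 was lowest of the 6 at 0.155 CPM per kb, below Prkg1 at 1.53 CPM per kb.

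Between the genotypes, Guca2a, Gucy2c and Prkg1 were higher in male tumours of the knock-in than of the wild-type. These 3 of 6 genes passed, all higher, where 14.5% of all genes tested passed and 9.30% were higher. The groups did not overlap for 4 of the 6, against 36.4% of all genes. Gucy2c was 113, 145 and 121 CPM in knock-in against 62.1, 56.7 and 57.7 CPM in wild-type tumours, a log2 fold change of 1.10 (edgeR's adjusted p = 0.004048, SE 0.19) that passed in every alternative run. Prkg1 was higher by 1.49 (edgeR's adjusted p = 0.008611, SE 0.31), and missed the threshold in a fit of the 2 compared groups alone (adjusted p = 0.05256) and without wild-type tumour replicate 1 (1.10, adjusted p = 0.05386).

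The call of Guca2a between the tumours was less firm. It was higher by 0.87 (edgeR's adjusted p = 0.03111, SE 0.25), but the adjusted p was 0.105 with limma voom and 0.05554 in a fit of these 2 groups alone. Leaving out any of the 3 wild-type tumours or knock-in tumour replicate 1 or 2 also ended the call, with adjusted p from 0.06065 to 0.1214. Pde5a was 186, 158 and 127 CPM against 110, 111 and 115 CPM, without overlap, but did not pass (0.49, edgeR's adjusted p = 0.0813, SE 0.19); without knock-in tumour replicate 3 it did (0.62, adjusted p = 0.04486). Guca2b and Prkg2 overlapped between the genotypes, with log2 fold changes of 0.00 (edgeR's adjusted p = 0.9975, SE 0.22) and −0.34 (edgeR's adjusted p = 0.7419, SE 0.65).

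Among markers, 1 of 15 smooth muscle genes passed higher in the knock-in tumours, with a list median of 1.22 and summed levels of 1296 to 1392 against 378 to 1089 CPM. Of the 12 pan-epithelial genes none was higher and 1 lower, with a median of 0.08, beside a median of 0.05 over all genes. Of the 12 differentiated colonocyte genes 2 were higher, with a median of 0.79, and the mean log2 CPM of the list was 5.40 to 6.43 in knock-in against 4.97 to 5.25 in wild-type tumours, without overlap. Of the 9 goblet genes 4 were higher, with a median of 1.10 and mean log2 CPM of 6.84 to 7.86 against 6.07 to 6.48. Of the 5 genes of interstitial cells of Cajal 2 were higher, with a median of 1.48 and mean log2 CPM of 4.42 to 4.93 against 3.08 to 3.84. The lists of enteroendocrine cells, enteric neurons and glia, fibroblasts and endothelial cells, with medians of 0.57, 1.14, 0.54 and 0.37, also lay higher in the knock-in tumours without overlap of the mean log2 CPM. The part of these lists in the differences of Guca2a, Gucy2c and Prkg1 was not tested. Relative to the pan-epithelial list Gucy2c was higher by 1.00 and Guca2a by 0.79 in the knock-in tumours, without overlap (exact p = 0.1, adjusted 0.2). Relative to the smooth muscle list Prkg1 differed by 0.20 and Pde5a by −0.72, with overlap (exact p = 0.8 and 0.3); with the median of the list in place of its mean, Prkg1 differed by −0.12.

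The test of the difference itself, the tumour effect in knock-in males minus that in wild-type males, passed for Gucy2c (1.18, edgeR's adjusted p = 0.04415, SE 0.26) and Prkg1 (1.66, edgeR's adjusted p = 0.04767, SE 0.41). These were 2 of 6 genes, both higher, where 1.51% of all genes passed and 1.14% were higher. Guca2a (1.06, edgeR's adjusted p = 0.08457, SE 0.34) and Pde5a (0.85, edgeR's adjusted p = 0.07698, SE 0.26) missed the threshold. Guca2b (−0.19, edgeR's adjusted p = 0.7295, SE 0.31) and Prkg2 (−0.80, edgeR's adjusted p = 0.6091, SE 0.93) did so by more. Both calls lay close to the threshold: in a fit of the 4 male groups alone the adjusted p was 0.1141 for Gucy2c and 0.1301 for Prkg1, and leaving out single libraries ended the call of Gucy2c in 7 of 12 cases and that of Prkg1 in 10 of 12. Neither passed in the fit blocked on replicate numbers, which are not shown to pair libraries (adjusted p = 0.05477 for Gucy2c and 0.07784 for Prkg1).

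**Figure D4:**
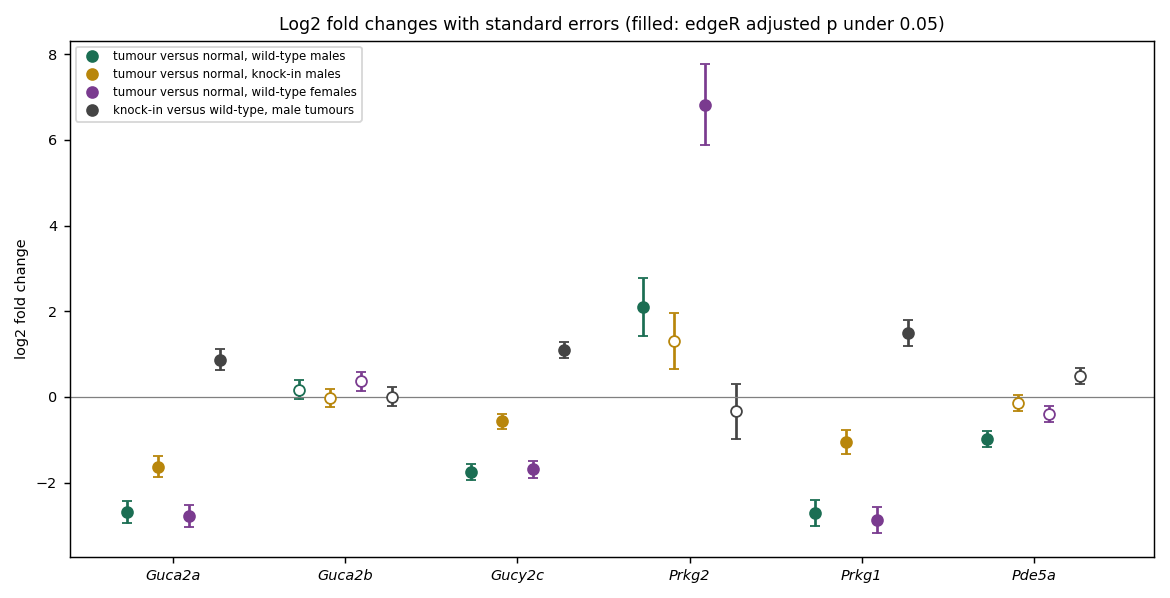
Log2 fold changes of the 6 genes (vertical axis) with standard errors (bars) in 4 comparisons (colours), filled where edgeR's adjusted p was under 0.05. Guca2a, Gucy2c and Prkg1 are lower in all 3 tumour comparisons, and the knock-in male changes of −1.63, −0.57 and −1.05 are the smallest of the 3 for each.

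In normal colon of males none of the 6 genes passed between the genotypes. The edgeR test called 0 of 6 and 0.0126% of all genes, none of the 6 had an unadjusted p under 0.05, and the DESeq2 and limma voom tests also called 0. In normal colon of females edgeR called 0 of 6 against 16.0% of all genes, while 3 of the 6 had an unadjusted p under 0.05. DESeq2 called 0 and limma voom 1, which was Prkg1 (0.65, adjusted p = 0.02001). The groups did not overlap for 4 of 6, against 37.8% of all genes.

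In these female normal libraries, Prkg1 was 23.9, 24.2 and 23.2 CPM in the knock-in against 14.0, 15.9 and 19.8 CPM in the wild-type, a log2 fold change of 0.53 (edgeR's adjusted p = 0.1804, SE 0.26). Pde5a was 236, 237 and 244 against 185, 154 and 218 CPM, or 0.37 (edgeR's adjusted p = 0.1892, SE 0.19). Guca2a at −0.54 (edgeR's adjusted p = 0.1312, SE 0.24), Guca2b at −0.50 (edgeR's adjusted p = 0.1368, SE 0.23) and Gucy2c at −0.39 (edgeR's adjusted p = 0.1589, SE 0.18) had lower means in the knock-in. In a fit of these 2 groups alone, Guca2a (−0.55, adjusted p = 0.033) and Prkg1 (0.53, adjusted p = 0.0467) passed. Smooth muscle genes were higher in 7 of 15 cases, with a median of 1.43 and summed levels of 8587 to 12070 against 2424 to 5559 CPM, and goblet genes were lower in 7 of 9, with a median of −1.54. Relative to the smooth muscle list, Prkg1 and Pde5a differed by −0.99 and −1.14, without overlap (exact p = 0.1, adjusted 0.2). Relative to the pan-epithelial list, Guca2a and Gucy2c differed by −0.34 and −0.18, with overlap (exact p = 0.3 and 0.5). Guca2b differed by −0.29 from that list, without overlap (exact p = 0.1, adjusted 0.2). Prkg2 came to 1.87 (edgeR's adjusted p = 0.2207, SE 1.01), a value that rested on knock-in replicate 1 at 7.86 CPM beside 1.01 and 0.536 CPM, and without it was −0.32.

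Between the sexes, Prkg2 alone of the 6 passed, in wild-type normal colon. It was lower in females (log2 fold change −4.48, edgeR's adjusted p = 0.005033, SE 0.93), and was 1 of 6 genes called, where 15.9% of all genes passed and 10.2% were lower. The female values of 0.279 to 1.14 CPM lay below the male values of 6.57 to 29.1 CPM, and no other of the 6 was without overlap, against 34.2% of all genes. Marker lists differed in the same comparison. Of the 8 crypt stem genes 7 were lower in females, with a median of −1.16 and mean log2 CPM of 3.70 to 4.08 against 4.54 to 5.43 in males. Of the 8 fibroblast genes 4 were lower, with summed levels of 1190 to 1423 against 2459 to 2778 CPM, and of the 8 endothelial and pericyte genes 6, with 162 to 212 against 316 to 377 CPM. None of these 3 lists overlapped between the sexes. By mean log2 CPM, the enteroendocrine list was also without overlap but higher in females, at 3.921 to 4.264 against 3.149 to 3.896. That of enteric neurons and glia was lower in females without overlap, at 1.495 to 1.712 against 1.757 to 2.065. The summed CPM of the enteroendocrine and the enteric list overlapped. The part of all these lists in the difference of Prkg2 was not tested. Gucy2c differed by 0.53 in this comparison (edgeR's adjusted p = 0.05725, SE 0.18) and passed with DESeq2 (adjusted p = 0.04178), with limma voom (0.004044), without wild-type male normal replicate 3 (0.014) and without wild-type female normal replicate 3 (0.02744).

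In knock-in normal colon edgeR called 0 of 6 between the sexes and 0.584% of all genes, with 4 of the 6 at an unadjusted p under 0.05 and 4 without overlap, against 19.7% of all genes. The DESeq2 and limma voom tests each called 2, Guca2b and Prkg2. Prkg2 gave 7.86, 1.01 and 0.536 CPM in females and 38.1, 10.3 and 38.0 CPM in males, a log2 fold change of −3.07 (edgeR's adjusted p = 0.08012, SE 0.76). It passed without knock-in female replicate 1 (−5.26, adjusted p = 0.03777) and without knock-in male replicate 2 (−3.47, adjusted p = 0.0209). Guca2b was −0.84 (edgeR's adjusted p = 0.08397, SE 0.22), Prkg1 0.70 (edgeR's adjusted p = 0.2, SE 0.26) and Pde5a 0.46 (edgeR's adjusted p = 0.2364, SE 0.19).

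In wild-type tumours edgeR called 0 of 6 between the sexes and 0.860% of all genes, with 1 at an unadjusted p under 0.05 and 2 without overlap, against 31.2% of all genes. Gucy2c was 0.59 higher in the mean of the female tumours (edgeR's adjusted p = 0.09526, SE 0.19) and Pde5a 0.34 (edgeR's adjusted p = 0.3064, SE 0.19). DESeq2 called 0 and limma voom 1, which was Gucy2c (adjusted p = 0.01355). Prkg2, far apart between the sexes in wild-type normal colon, overlapped in the tumours, at 76.8 to 113 CPM in males and 98.6 to 115 CPM in females.

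The tumour effect of wild-type females minus that of wild-type males was tested as an interaction. None of the 6 genes passed with edgeR, against 1.12% of all genes, while 2 had an unadjusted p under 0.05. DESeq2 and limma voom each called 1, Prkg2. The edgeR value of Prkg2 was 4.72 (edgeR's adjusted p = 0.05809, SE 1.14) and it passed with library totals in place of TMM (0.04466), with DESeq2 (0.002896), with limma voom (0.02312), in a fit of the 4 wild-type groups alone (0.02037) and without wild-type male normal replicate 3 (0.02173). Pde5a came to 0.60 (edgeR's adjusted p = 0.3138, SE 0.26). For the genotype effect in normal colon of females minus males, edgeR again called 0 of 6 against 2.54% of all genes, with 2 at an unadjusted p under 0.05 and 0 called by DESeq2 or limma voom. The values were −0.69 for Guca2b (edgeR's adjusted p = 0.2574, SE 0.31) and 0.72 for Pde5a (edgeR's adjusted p = 0.1558, SE 0.26), and without wild-type male normal replicate 2 that of Pde5a passed (0.94, adjusted p = 0.03082).

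The other genes of the pathway were taken in 5 lists. Of 10 tested genes of cGMP synthesis, 4 were lower and none higher in wild-type male tumours, with a median log2 fold change of −0.40. In knock-in males 1 was higher and 1 lower. In wild-type females 2 were higher and 3 lower, with a list median of 0.45. The 4, 2 and 5 genes that passed stand against 35.7%, 20.4% and 49.1% of all genes tested, near the background in each comparison. Gucy1a3, a subunit of the soluble guanylyl cyclase that nitric oxide activates, was lower in all 3, at log2 fold changes of −2.78 (edgeR's adjusted p = 3.249e-05, SE 0.37), −0.98 (edgeR's adjusted p = 0.04161, SE 0.33) and −2.13 (edgeR's adjusted p = 0.0001106, SE 0.37). Nppc, the gene of the C-type natriuretic peptide, passed higher in knock-in males and wild-type females, but rested on 2 to 37 and 5 to 20 counts in the tumours and at most 1 in the normal libraries. Between the male tumours Gucy1a3 was 1.81 higher in the knock-in (edgeR's adjusted p = 0.007993, SE 0.37).

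Of 14 genes of cGMP breakdown and export, 2 were higher and 3 lower in wild-type males, 1 and 3 in knock-in males, and 4 and 5 in wild-type females. The list medians were −0.23, −0.11 and −0.25. The 5, 4 and 9 genes that passed, of 14, again stand against 35.7%, 20.4% and 49.1% of all genes. Abcc4, an exporter of cyclic nucleotides, was higher by 1.33 (edgeR's adjusted p = 0.001214, SE 0.27), 0.93 (edgeR's adjusted p = 0.023, SE 0.27) and 2.07 (edgeR's adjusted p = 1.312e-05, SE 0.28). The phosphodiesterase genes Pde3a and Pde2a were lower in all 3 comparisons, Pde3a at log2 fold changes of −1.89, −0.85 and −2.30 (edgeR adjusted p = 6.43e-06, 0.007571 and 2.379e-07). Among male tumours both were higher in the knock-in, by 0.83 (edgeR's adjusted p = 0.01526, SE 0.20) and 0.98 (edgeR's adjusted p = 0.02403, SE 0.26). Pde9a, which encodes a phosphodiesterase specific for cGMP, did not pass in any tumour comparison (−0.24, −0.11 and −0.70), and between the genotypes in female normal colon it was −0.99 (edgeR's adjusted p = 0.04619, SE 0.32).

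Among 13 partners and substrates of the cGMP kinases, 7, 5 and 7 were lower and 1, 0 and 1 higher in the tumours of wild-type males, knock-in males and wild-type females, where 19.3%, 9.97% and 24.0% of all genes were lower. Kcnma1, the potassium channel that cGKI opens in smooth muscle, was lower at log2 fold changes of −2.56 (edgeR's adjusted p = 2.349e-07, SE 0.18), −1.07 (edgeR's adjusted p = 0.001758, SE 0.16) and −2.02 (edgeR's adjusted p = 1.288e-07, SE 0.17). Ppp1r12a, the targeting subunit of myosin phosphatase, was lower in all 3 at −0.92, −0.45 and −1.02 (edgeR adjusted p = 0.0001517, 0.03688 and 1.941e-05). Vasp, a substrate of both kinases, did not pass in any (−0.23, −0.20 and −0.33). Between the male tumours 1 was higher, Kcnma1 at 1.70 (edgeR's adjusted p = 0.0001579, SE 0.18), and 1 lower. Kcnma1 was also 0.86 higher in wild-type female than in wild-type male tumours (edgeR's adjusted p = 0.03363, SE 0.18). Hspb6 is in both this list and the smooth muscle list.

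The 14 genes of salt and fluid transport downstream of the receptor were lower in 7, 4 and 8 cases and higher in 0, 0 and 1, with medians of −0.55, −0.38 and −0.72, against the same 19.3%, 9.97% and 24.0% of all genes lower. Slc26a3, the chloride and bicarbonate exchanger of the colonocyte, was lower at log2 fold changes of −4.95 (edgeR's adjusted p = 0.0001581, SE 0.74), −2.14 (edgeR's adjusted p = 0.02919, SE 0.64) and −6.40 (edgeR's adjusted p = 1.079e-05, SE 0.79). Slc12a2, the basolateral chloride loader of secreting cells, did not pass in the tumour comparisons (−0.37, 0.42 and 0.27), and was 0.98 higher in male tumours of the knock-in (edgeR's adjusted p = 0.003498, SE 0.16). It was also 0.87 higher in wild-type female than in wild-type male tumours (edgeR's adjusted p = 0.01766, SE 0.16). Between the genotypes in male tumours 4 of the 14 were higher and none lower. Slc26a3 is also in the colonocyte list, and Ano1, −1.16 in wild-type males (edgeR's adjusted p = 0.0007027, SE 0.22), also marks interstitial cells of Cajal.

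Of 11 transcription factors of the intestinal epithelium, 7, 5 and 9 were lower in the tumours and none higher, with medians of −1.52, −0.52 and −1.49, against 19.3%, 9.97% and 24.0% of all genes lower. Hnf4a was lower at log2 fold changes of −1.12 (edgeR's adjusted p = 4.151e-05, SE 0.16), −0.52 (edgeR's adjusted p = 0.02416, SE 0.15) and −1.45 (edgeR's adjusted p = 1.09e-06, SE 0.16). Klf4, a factor of differentiating epithelium, was lower at log2 fold changes of −1.98, −0.91 and −2.69 (edgeR adjusted p = 0.0001677, 0.04219 and 4.286e-06). Between the male tumours 3 of 11 were higher in the knock-in, among them Cdx1 (0.71, edgeR's adjusted p = 0.01916, SE 0.18), a factor of intestinal identity.

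**Figure D5:**
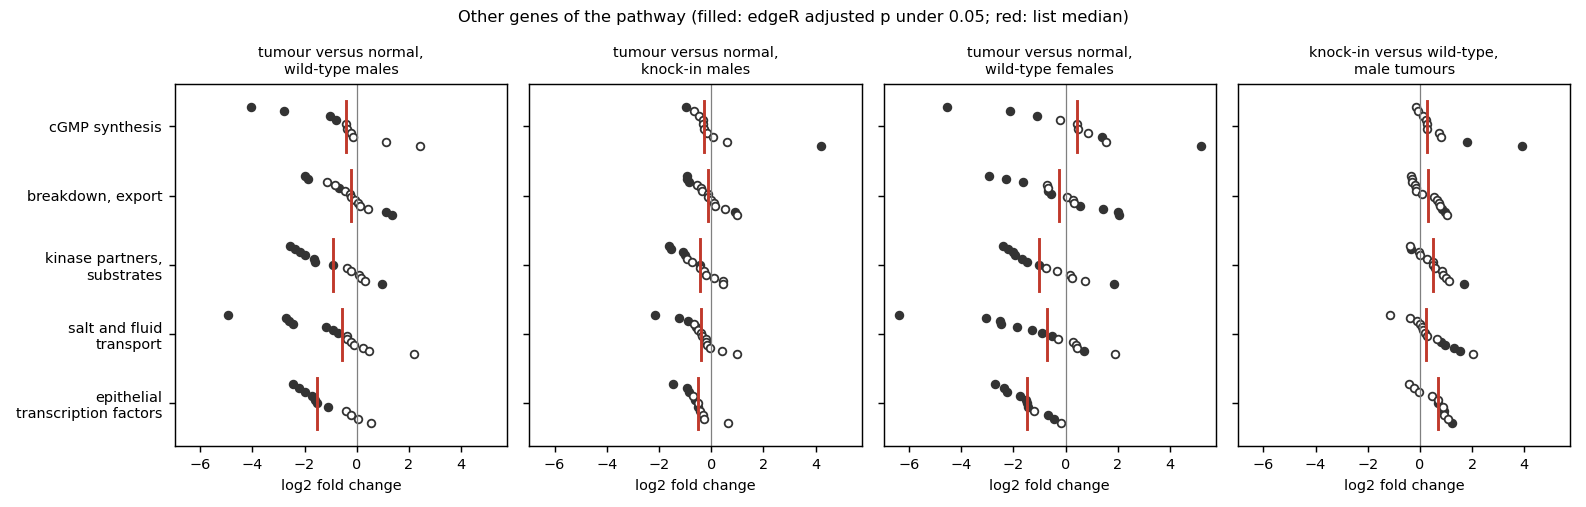
Log2 fold changes (horizontal axis) of the tested genes of the 5 pathway lists (rows) in 4 comparisons (panels), 1 point per gene, filled where edgeR's adjusted p was under 0.05, with the list median as a red bar. Transcription factors have medians of −1.52, −0.52 and −1.49 in the 3 tumour comparisons and 0.71 between the male tumours.

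For each of the 6 genes the most alike genes were sought by Pearson r of log2 CPM over the 21 libraries, among 11496 genes with a mean of at least 5 CPM. These values are descriptions, since all points share the difference between tumour and normal. Guca2a was nearest to Ces2a, Tep1 and Hsd11b2 (r = 0.98, 0.97 and 0.97), and Gucy2c to Tspan3, BC030870 and Gfpt1 (0.99 each). Prkg1 was close to Kcnd3 and Fhl1 (0.98 and 0.97), and Pde5a to Lpp, Ankrd46 and Cnst (0.93, 0.90 and 0.90). Prkg2 was nearest to the zinc transporter gene Slc30a2, the homeobox gene Prox1 and the R-spondin receptor gene Lgr6 (0.99 each). Guca2b had no such close partner, with 0.81 each for Ptpro, Plet1 and Khdc1a.

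The promoters of the hormone genes are shown because these neighbours differed in the tumour comparisons. RefSeq promoter windows of GRCm38.p6 were matched for 4 of the 6 genes, and 250 bases before the start were searched on both strands for TTTAT (a core of CDX sites), GTTAAT (part of the HNF1 site), CTTTGA (a core of TCF sites) and the CArG box of smooth muscle genes. The RefSeq starts of both hormone genes lie inside the GENCODE bounds given above, so their windows overlap those bounds. The windows are chr4:119637482-119637731 (plus strand) for Guca2a and chr4:119658946-119659195 (minus strand) for Guca2b, written 5′ to 3′ on the gene's strand with matches in capitals.
Guca2a: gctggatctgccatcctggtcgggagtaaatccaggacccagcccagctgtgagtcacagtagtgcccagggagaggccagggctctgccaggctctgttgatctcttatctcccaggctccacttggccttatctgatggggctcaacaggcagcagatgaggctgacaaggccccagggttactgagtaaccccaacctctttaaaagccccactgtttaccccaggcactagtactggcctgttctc
Guca2b: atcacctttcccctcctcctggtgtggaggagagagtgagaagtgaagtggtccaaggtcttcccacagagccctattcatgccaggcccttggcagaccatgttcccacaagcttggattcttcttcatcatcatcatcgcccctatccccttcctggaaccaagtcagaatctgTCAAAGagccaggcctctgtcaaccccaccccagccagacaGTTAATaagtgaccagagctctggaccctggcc
Guca2a had no match. Guca2b had GTTAAT, 33 bases before the RefSeq start, and the reverse complement of CTTTGA, 74 bases before it. Prkg1 had no match in either of its windows. Pde5a had the reverse complement of TTTAT, 13 bases before its RefSeq start, and no CArG box. Of 32851 promoter windows of this length, 37.3% held TTTAT, 6.4% GTTAAT, 13.8% CTTTGA and 1.5% a CArG box. A match is a description of letters and not of a bound site.

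Over all libraries the depth was 3414123 to 26174008 counts, so that 3 counts corresponded to between 0.127 and 0.873 CPM, which covers counting error only. The lowest count of Guca2a was 43, of Guca2b 23 and of Prkg1 12, all in wild-type male tumour replicate 2, the library with the fewest counts. Prkg2 in wild-type female normal replicate 2 rested on 2 counts, under the 3 counts taken as the floor, so its level there was not measurable beyond that limit. The epithelial and smooth muscle markers that define colon tissue had counts in every group.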

How the data were processed

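Per the labels' protocols, RNA of mouse colon was purified with Qiazol, ribosomal RNA was removed by RNase H, cDNA was primed with random hexamers, and a NovaSeq was used for sequencing. The deposited table holds raw counts per gene, made by the authors with Trimmomatic, HISAT2 and featureCounts on mm10, per the submitters' processing notes. Versions, annotation and strand setting are not given in the sources used here, so reads shared by paralogs or antisense genes are uncertain. No column of per-sample values was left unused (0), and the authors' DESeq2 results were not used.

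The 6 genes and all lists were chosen with earlier results of these data known. The counts of 21 libraries entered a single edgeR quasi-likelihood fit (edgeR 4.0.16, R 4.3.3; TMM scaling, filterByExpr, robust, 1 coefficient per group), with two-sided tests of 9 pairs of groups and 3 interactions and Benjamini-Hochberg adjustment over 15936 genes at 0.05. Standard errors are the log2 fold change divided by the root of F. CPM use TMM-scaled library sizes, log2 CPM a prior count of 2, and log2 ratios of hormone counts a pseudocount of 0.5. Ratios and values relative to a marker list were compared by exact permutation. All 6 genes are named. Of each pathway list up to 2 genes that passed higher, 2 that passed lower and 1 that did not pass were eligible by mean CPM, and Nppc counts and Hspb6 were added after their values were seen. Genes of like pattern are the 3 with the highest r. A few genes that these rules select are not reported here.

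Libraries were numbered within groups by the labels. In wild-type males, the deviations of tumour and normal libraries of the same number had correlations of 0.17, 0.17 and 0.21. Libraries of different genotype or sex reached like values. These were 0.46 for number 1 of knock-in and wild-type male normal colon, and 0.17 for number 2 of female and male wild-type normal colon. The correlations thus do not show that the numbers pair libraries. The block changed no call of the 6 genes in the tumour comparison of wild-type males. Counts were also simulated with the depth and spread of these libraries and equal means in all groups. Only 200 of 15936 genes were changed, in the wild-type male tumours. The test recovered 48% of those changed by 1 log2 unit and 76% of those changed by 2, with 7 false calls. In the real comparison 35.7% of all genes passed, so these rates do not carry over to it. The alternatives were scaling by DESeq2 size factors or by totals, testing without the filter or at a mean count of 50 or more, the tests of DESeq2 1.42.0 and of limma 3.58.1 (voom with quality weights), a fit of the compared groups alone, the replicate block, a covariate for library numbers from 152 up, the median of a marker list, other pseudocounts, and leaving out each library.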

Additional observations from a re-analysis of the deposited data

Results flagged for a closer look

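The tumour effect of Gucy2c differed between the male genotypes by 1.18 on the log2 scale, and that of Prkg1 by 1.66, and the test of the difference itself passed for both in the fit without a block (edgeR's adjusted p = 0.04415 and 0.04767). With the replicate number as a block, although the numbers are not shown to pair libraries, neither passed (adjusted p = 0.05477 and 0.07784). Gucy2c was −1.75 in wild-type and −0.57 in knock-in males, and Prkg1 −2.71 and −1.05. The median of the smooth muscle list was −3.35 and −2.37 in the same comparisons that of the pan-epithelial list −0.47 and −0.17, and that of the differentiated colonocyte list −1.44 and −0.60. Their part in these differences was not tested.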

How the results depend on the processing

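The fold changes of Guca2a and Prkg1 between tumour and normal kept their direction under every alternative run, and so did that of Gucy2c. Guca2b, whose values lay near 0, changed sign: it was 0.004 in knock-in males with library totals and 0.054 between the male tumours with limma voom. Leaving out 1 library gave −0.078 to 0.332 for Guca2b in wild-type males, −0.168 to 0.082 in knock-in males, −0.171 to 0.183 between the male tumours and −0.357 to 0.009 for its interaction. Prkg2 between the genotypes in female normal colon ranged from −0.315 to 2.368. Library totals moved the median of all genes from 0.008 to 0.15 in the wild-type female tumour comparison and from 0.029 to 0.135 in the interaction of the sexes, without changing a call of the 6 genes in the former.

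Relative to the pan-epithelial list, Guca2b differed by 0.062 between the male tumours with the median of the list, and by −0.197 to 0.126 without single libraries, and in knock-in males by −0.033 to 0.300. Between the male tumours, Prkg1 relative to smooth muscle was −0.120 with the median of the list and −0.125 to 0.589 without single libraries. The genotype difference of the hormone ratio in female normal colon was −0.099 to 0.052 without single libraries.

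The number of the 6 genes called moved by over 1.5 times as follows. With only the compared groups it was 1 in knock-in males, 1 between the male tumours, 2 between the genotypes in female normal colon, 1 between the sexes in wild-type tumours, 0 for the interaction of the male genotypes and 1 for that of the sexes. DESeq2 gave 2 between the sexes in wild-type and 2 in knock-in normal colon, 4 for the interaction of the male genotypes and 1 for that of the sexes. With limma voom it was 1 in female normal colon, 1 between the sexes in wild-type tumours, 2 in wild-type and 2 in knock-in normal colon and 1 for the interaction of the sexes. For the interaction of the male genotypes it was 1 with DESeq2 size factors, 1 without the low-count filter and 0 with a covariate for library numbers from 152 up. For that of the sexes it was 1 with library totals and 1 at a mean of at least 50 counts. Leaving out 1 library gave 1 to 4 between the male tumours, 1 to 2 between the sexes in wild-type and 0 to 1 in knock-in normal colon, 0 to 4 and 0 to 1 for these interactions, and 0 to 1 for that of genotype and sex in normal colon.

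With the replicate number as a block, fitted on the 18 numbered libraries, the interaction of the male genotypes called 0 of 6 (adjusted p = 0.05477 for Gucy2c and 0.07784 for Prkg1), that of the sexes called 1 (Prkg2, 0.03907), and Guca2a between the male tumours had an adjusted p of 0.05771. Libraries of the same number are not shown to be pairs in any comparison. Depth limits Prkg2 most, with 2 to 27 counts in wild-type female normal colon.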
